A study of Mus musculus with 441 samples.

Results

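The genes followed here through single cells of mouse pancreatic islets were Cd74, H2-Aa, H2-Ab1, H2-Eb1 and H2-DMa. They were chosen by name as genes of MHC class II and its invariant chain, and all 5 were among the 13561 genes of the deposited expression table. MHC class II molecules hold peptides from the endosome on the surface of B cells, dendritic cells and other antigen presenting cells, where CD4 T cells read them. H2-Aa and H2-Ab1 encode the alpha and beta chain of I-A, and H2-Eb1 encodes the beta chain of I-E. Cd74, the invariant chain, occupies the groove of new class II molecules and guides them to the endosome. There its last fragment, CLIP, is released with the help of H2-DM, whose alpha chain is encoded by H2-DMa. Resting mouse T cells are known for lacking most of this machinery, and antibody-secreting cells for losing it as they mature from B cells.

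The series addresses how release of CLIP from class II shapes antigen presentation in autoimmunity. It held 441 cells from digested pancreatic islets, sorted singly as CD4 T cells that bound a tetramer specific for beta cells, and read by full-length SMART-Seq2. A tetramer is a linked set of MHC molecules with peptide that binds T cells of matching receptor. The labels call the sorts HIP (184 cells) and Ins (257 cells) without spelling out the names, and they give no strain, age, genotype, treatment or animal for either. The authors' annotation gave 420 cells to 4 T cell classes. The HIP sort held 111 T follicular helper cells (Tfh), 3 regulatory T cells (Treg), 61 activated and 9 dividing cells, and the Ins sort 61, 115, 25 and 35. The other 21 cells, all from the Ins sort, formed cluster 4, annotated as B cells. The classes carry cluster numbers and were taken to rest on these same expression values, so differences between classes are given as descriptions.

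Each sort counted as 1 sample, since no label names an animal, and no test between sorts was possible. Values are TPM, which are scaled for transcript length, and a gene counted as detected at 1 TPM or more. Shares of cells carry exact Clopper-Pearson 95% intervals, which cover counting error only. Where no cell held a gene, the share a count of 0 allows is given as 3 cells of the total and not by that interval, which reaches somewhat higher. Blocks of 96 consecutive cell numbers (2 HIP and 3 Ins blocks) served to show spread within a sort. Whether they are plates is not in the labels. No block held both sorts, so block and sort cannot be told apart. Cells had 2081 genes above 0 at the median (625 to 5929), with 2021.5 in the HIP and 2148 in the Ins sort. The sequencing depth behind each cell is unknown.

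In the mouse build GRCm38.p6, the RefSeq annotation places 4 of the genes in the MHC on chromosome 17: H2-DMa at 34119693 to 34139101, H2-Ab1 at 34263227 to 34269418, H2-Aa at 34282744 to 34287823 and H2-Eb1 at 34305867 to 34316674. Class II promoters are known for an X box and a Y box, bound by the RFX and NF-Y complexes, on which the coactivator CIITA assembles. The stretches of 120 bases before the RefSeq start of H2-Aa (chr17:34287824-34287943, minus strand) and H2-Eb1 (chr17:34305747-34305866, plus strand) are shown because these genes were detected in exactly the same 20 cells of cluster 4. They read 5′ to 3′, and capitals mark GCAAC, a core of the X box, and ATTGG, the inverted CCAAT of the Y box.
H2-Aa: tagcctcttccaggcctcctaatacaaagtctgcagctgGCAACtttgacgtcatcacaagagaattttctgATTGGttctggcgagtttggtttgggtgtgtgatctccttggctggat
H2-Eb1: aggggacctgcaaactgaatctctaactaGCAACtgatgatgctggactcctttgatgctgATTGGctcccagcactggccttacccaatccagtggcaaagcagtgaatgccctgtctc
The 2 motifs were 28 bases apart in H2-Aa and 27 bases apart in H2-Eb1. A GCAAC followed by an ATTGG after 10 to 40 bases, on either strand, was found in 222 of 32851 RefSeq promoter windows of the same length (0.676%). ATTGG alone was found in 21.3% and GCAAC alone in 16.1%. The letters were chosen with these sequences in view, and a match is a description of the window, not a measured site. Neither of the 2 windows listed for H2-DMa (34122712 to 34122831 and 34125398 to 34125517) held the pair. Both lie inside the span given above for that gene, and the bases before that span were not searched.

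Before the results, 4 cells have to be set apart, because their RNA went against their label. They were annotated as Tfh, and each held all 3 classical chains (H2-Aa, H2-Ab1 and H2-Eb1) at 100 TPM or more, a limit chosen after their values were seen. Cells S56 and S68 came from the first HIP block, and S111 and S124 from the first Ins block. In that order Cd74 stood at 20063, 30402, 8499 and 21633 TPM, and H2-Ab1 at 30958, 53758, 2249 and 40900 TPM. H2-Aa stood at 13863, 15155, 207 and 15524 TPM, so S111 was far below the other three. H2-Eb1 stood at 6281, 10539, 3726 and 8638 TPM, and its highest value in cluster 4 was 3646 TPM. With Igj, which takes a large part of the TPM of cluster 4, left out of the scale, that highest value was 4046 TPM, above S111 and below the other three. The 5 genes together took 1.47% to 11.0% of a cell's TPM.

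The T cell genes Cd3e, Cd3d, Cd4, Cd28 and Lck were listed at 0 in all 4 cells, and Cd3g reached 2.49 TPM in S56 only. Of the 416 other T cells, 6 lacked both Cd3e and Cd4. The B cell receptor genes Cd79a and Cd79b were each found in 3 of the 4 cells, at 3823 to 5745 TPM and 3769 to 5805 TPM where detected, and every one of them held at least 1. Of the 416 other T cells, 7 had Cd79a or Cd79b. Igj, Sdc1 and Mzb1, genes of antibody-secreting cells, were at 0 in all 4, as were all 8 measured myeloid and dendritic markers. Fcer2a, an IgE receptor of B cells, was found in 3 of the 4, with up to 1447 TPM, and in 1 of 21 cells of cluster 4. The gene numbers were 1734, 1096, 2111 and 1375, against a median of 2081 over all cells. Among Tfh without Cd74 the median was 1954.5 in HIP and 1963 in Ins. The 4 cells are kept apart from the other T cells below, and the main shares and differences are given with and without them.

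The closest cell under the limit was S2, a Tfh of the first HIP block, with 140.2 TPM of H2-Aa, 1504 of H2-Ab1 and 1.44 of H2-Eb1. Unlike the 4, it held Cd3e (161 TPM) and Cd4 (2204 TPM), among 5 of the 6 listed T cell markers, with Lck at 0. It also held Cd74 (756 TPM) and 1 of the 7 measured B cell markers, with Cd79a and Cd79b at 0. Whether it holds RNA of 2 cells was not tested.

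**Figure D1:**
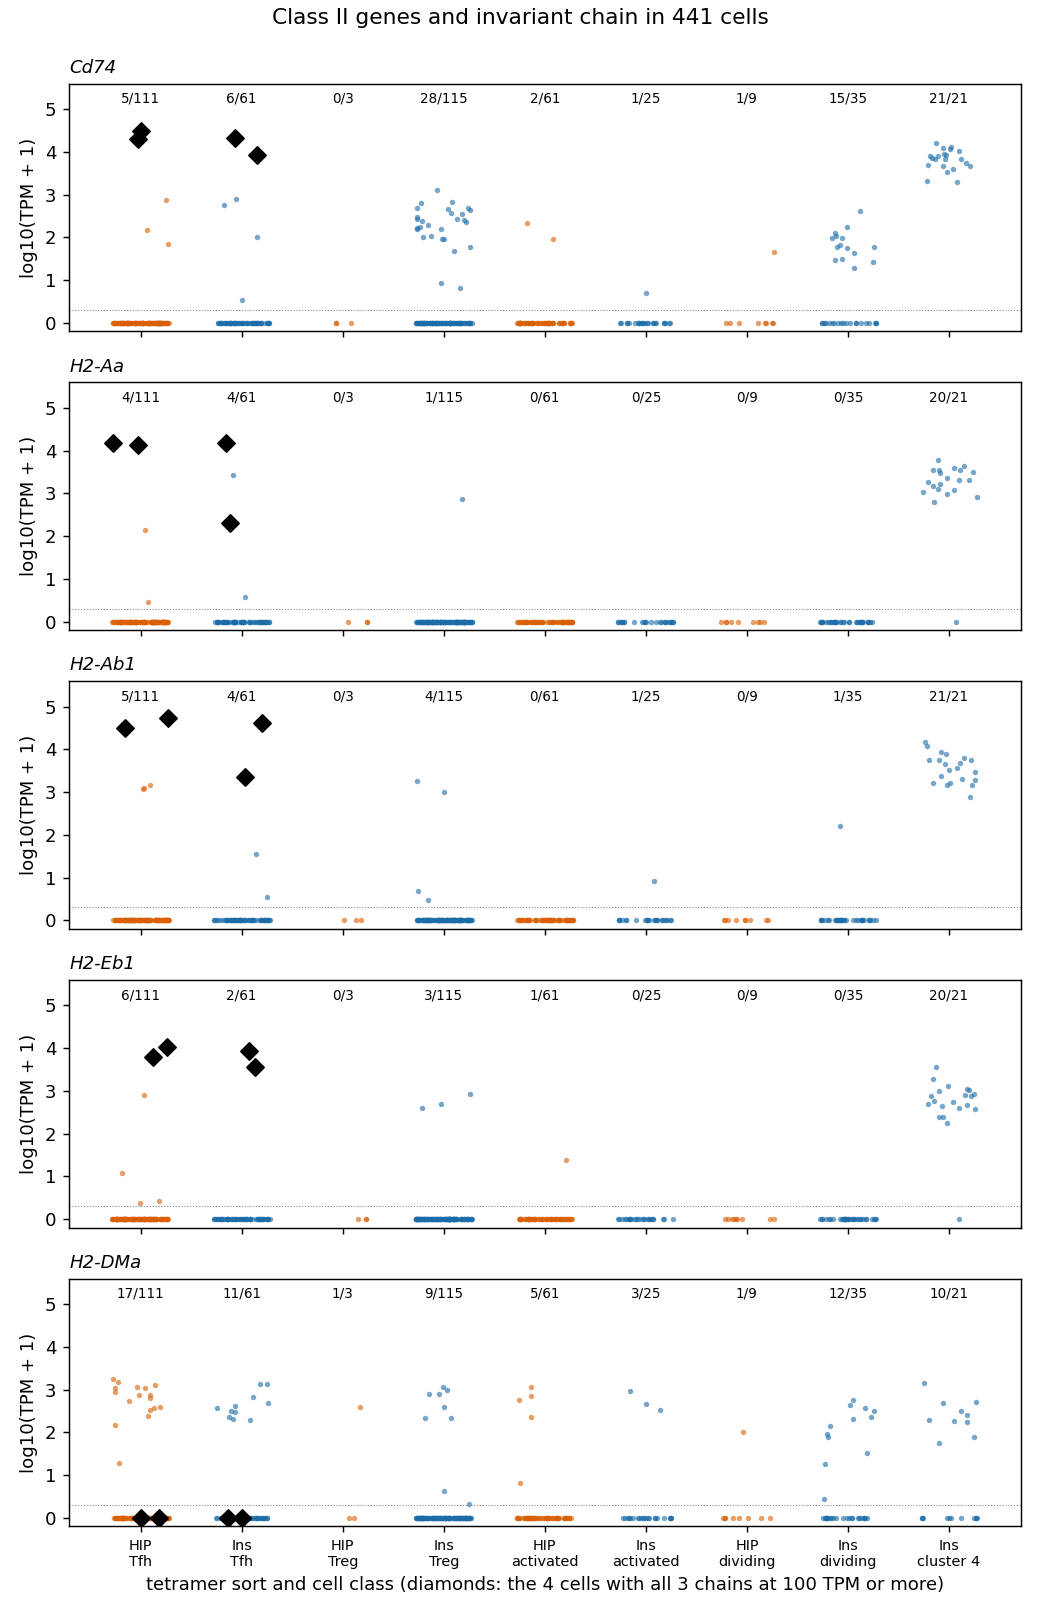
Level of each of the 5 genes in each of the 441 cells, as log10(TPM + 1), by sort and annotated class (orange HIP, blue Ins). Numbers above each group are cells detected of cells measured, the dotted line marks 1 TPM, and diamonds are the 4 Tfh-annotated cells, with H2-Eb1 at 3726 to 10539 TPM and none with H2-DMa.

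Cluster 4 carried the invariant chain and the I-A and I-E chains in nearly every cell, while H2-DMa was found in 10 of 21. Cd74, whose gene lies outside the MHC on chromosome 18 (60803849 to 60812652), led them. It was detected in 21 of 21 cells (100%, interval 83.9% to 100%), with 2028 TPM in the lowest, 7036 at the median and 16229 in the highest. H2-Ab1 was also found in 21 of 21 cells, with 753 TPM in the lowest cell, 3731 at the median and 14626 in the highest. H2-Aa was found in 20 of 21 (95.2%, 76.2% to 99.9%), with a median of 2019 TPM and a highest value of 6169 TPM. H2-Eb1 was found in the same 20 cells, with a median of 573 TPM and a highest value of 3646 TPM. The cell without either, S389, still held Cd74 at 7150 and H2-Ab1 at 1671 TPM. H2-DMa, by contrast, was found in 10 of 21 cells (47.6%, 25.7% to 70.2%), with 54.7 to 1396 TPM where detected.

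Within a cell, Cd74 was the largest of the 5 at the median, with 45.3% of their summed TPM (29.6% to 76.5%). H2-Ab1 followed with a median of 31.3%, H2-Aa with 16.5% and H2-Eb1 with 4.38%. The ratio of H2-Aa to H2-Ab1, the partners of I-A, was 0.572 at the median and reached 2.37. The sum of the 5 ran from 4514 to 39204 TPM, a median of 1.31% of the cell's TPM. On the log2 scale the correlation over the 21 cells was 0.56 for Cd74 and H2-Ab1, and 0.91 for H2-Aa and H2-Eb1. The second value fell to 0.44 over the 20 cells that held H2-Aa, so it rested on S389. All points share a library type and the closed scale of TPM.

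The markers of cluster 4 were those of antibody-secreting cells more than of B cells. Xbp1, the factor of the secretory programme, Igj, the joining chain of secreted antibodies, and Mzb1 were found in 21 of 21 cells, and Sdc1 (CD138) in 20 of 21. Igj alone took 3.01% to 32.1% of a cell's TPM, with a median of 9.87%. Because TPM is a closed scale, the other genes are lower for it: with Igj left out, the Cd74 median was 8709 TPM. Of the B cell genes, Cd79a was found in 19, Cd79b in 17, and Ms4a1 (CD20) in 7 of 21 cells. All 11 measured genes of the antibody-secreting list were found in over 50% of the cells, and 2 of 11 of the B cell list. Cell S372 also held T cell genes (Cd3e at 283, Cd3d at 727, Cd3g at 2998 and Lck at 1329 TPM), and had the most genes (4254) and the least Cd74 (2028 TPM) of the cluster. Without it the Cd74 median was 7093 TPM, and whether it holds RNA of 2 cells was not tested.

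**Figure D2:**
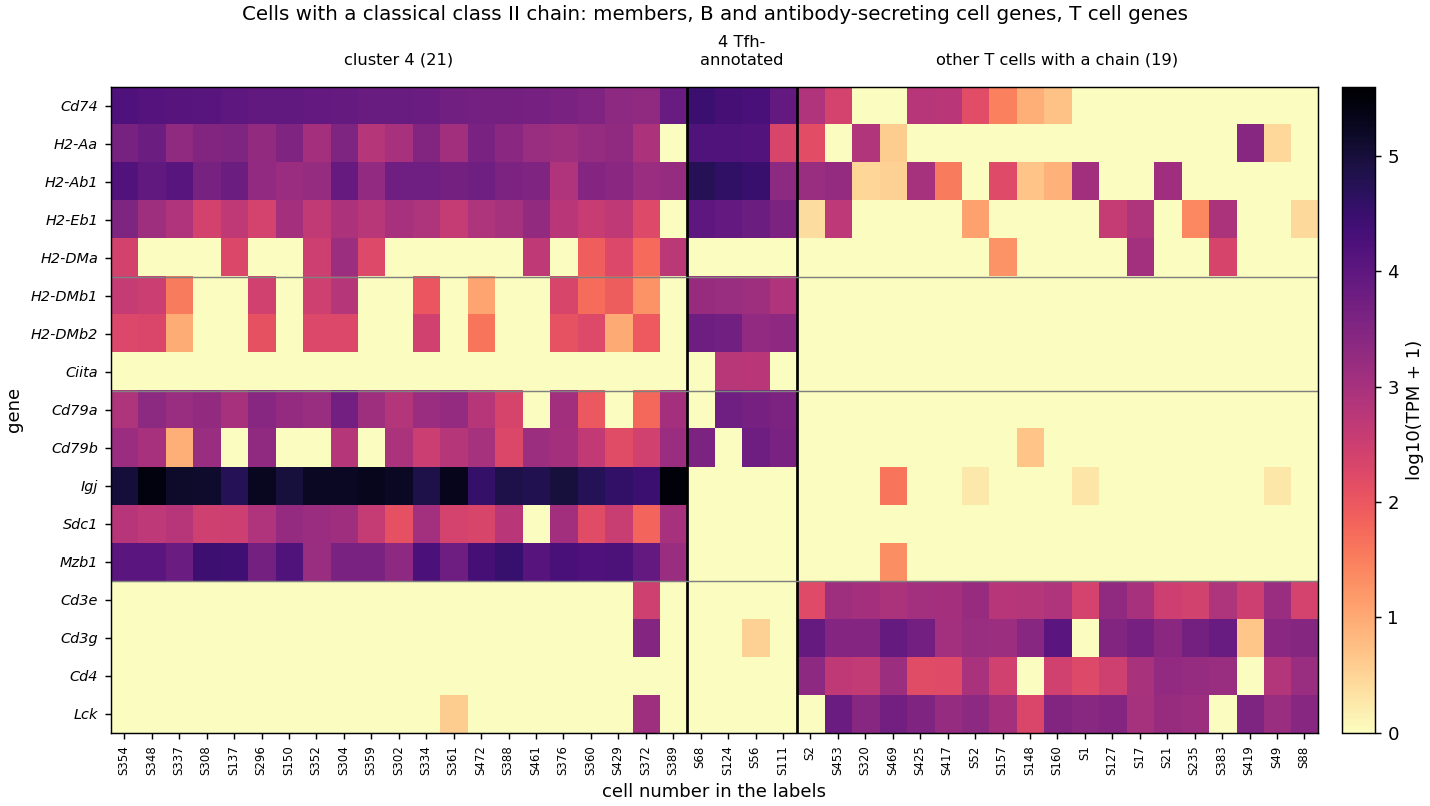
Heat map of log10(TPM + 1) in the 44 cells with at least 1 classical chain: 21 cells of cluster 4, the 4 Tfh-annotated cells and 19 other T cells. Igj, Sdc1 and Mzb1 fill cluster 4 and are empty in the 4, Cd3e is present in all 19 other T cells and in 1 cell of cluster 4, and most of the 19 hold a single chain.

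In T cells, Cd74 was the class II gene that differed most between the sorts. Apart from the 4 set-aside cells, 48 of 234 T cells of the Ins sort held it (20.5%, 15.5% to 26.3%), and 6 of 182 of the HIP sort did (3.30%, 1.22% to 7.04%). With the 4 the counts were 50 of 236 (21.2%) and 8 of 184 (4.35%). The intervals cover counting error only and each sort was 1 sample, so they do not measure a difference between sorts beyond these cells. By block the shares were 3.49% and 3.13% in HIP, and 22.1%, 17.7% and 21.8% in Ins. Where detected, the level was 44.3 to 756 TPM in HIP (median 119) and 2.34 to 1304 TPM in Ins (median 141.5), so every detected value lay below the lowest in cluster 4. The difference in mean log2(TPM + 1), HIP minus Ins, was -1.18 without the 4 and -1.13 with them. Of the 6389 genes that passed a filter of 10% of cells in either sort, 17.7% had each HIP block below each Ins block, and Cd74 was one of them. Cd74 passed through the Ins sort alone (20.5% against 3.30%), so its direction was largely set by the filter. H2-DMa, the other member that passed that filter, was not. The remaining 3 members fell under the filter.

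The Ins cells with Cd74 were mostly Tregs and dividing cells. Among Ins Tregs 28 of 115 had Cd74 (24.3%, 16.8% to 33.2%), with a median of 234 TPM where detected and a highest value of 1304 TPM. Among Ins dividing cells 15 of 35 had it (42.9%, 26.3% to 60.6%), at a lower median of 60.1 TPM and a highest value of 412 TPM. Ins Tfh without the set-aside cells had it in 4 of 59 (6.78%, 1.88% to 16.5%) and Ins activated cells in 1 of 25 (4.00%, 0.101% to 20.4%). In the HIP sort it was found in 3 of 109 Tfh (2.75%, 0.571% to 7.83%), 2 of 61 activated cells (3.28%, 0.400% to 11.3%), 1 of 9 dividing cells and none of 3 Tregs. The intervals of the sorts overlapped within each of these classes. The sorts differ in class make-up, with 115 Tregs in Ins and 3 in HIP, so the difference over all T cells cannot be told apart from that make-up.

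**Figure D3:**
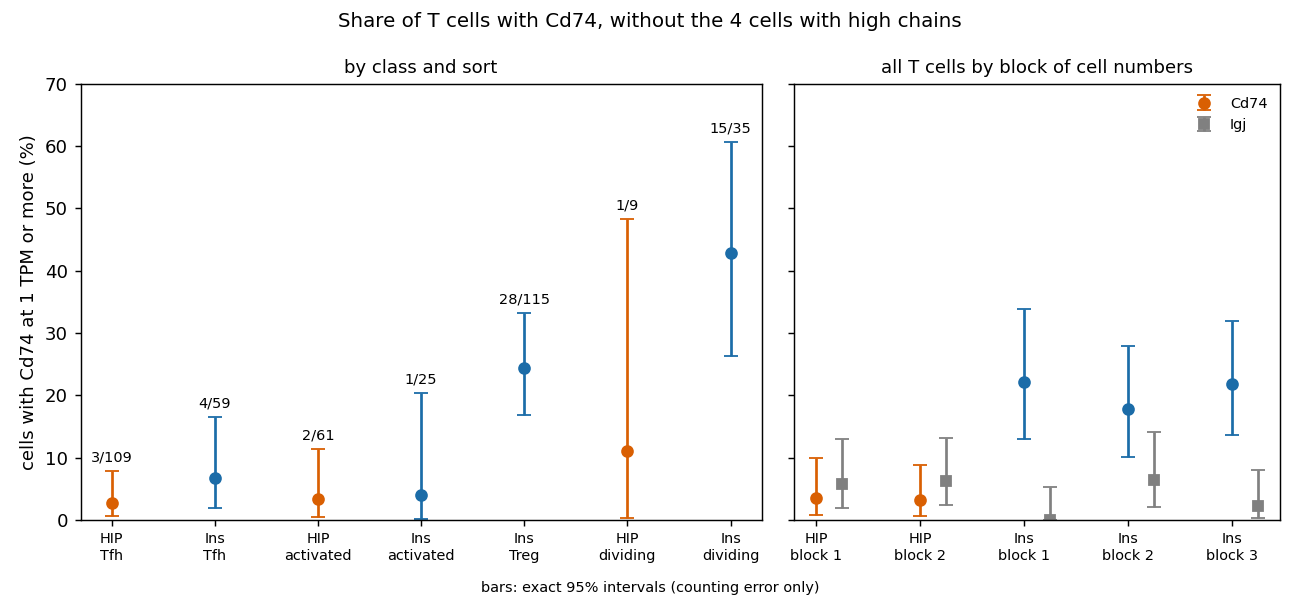
Share of cells with Cd74 (%), with exact 95% intervals for counting error, by class and sort (left) and over all T cells by block (right), without the 4 set-aside cells. Ins Tregs and dividing cells stand highest on the left, and the 3 Ins blocks lie at 17.7% to 22.1% against 3.13% and 3.49% in the HIP blocks; grey squares give Igj, at 0% to 6.33%.

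Within the Ins sort, Cd74 was higher in Tregs than in Tfh. The difference in mean log2(TPM + 1) was 1.37 without the set-aside cells and 0.93 with them. In the 3 Ins blocks it was 1.46, 0.77 and 1.89 without them. With them the first block turned to -0.26, since S111 and S124 are among its Tfh. Of 6326 genes tested the same way, without the 4, 19.8% were higher in Tregs in all 3 blocks, so the direction alone is common. Cd74 also passed the filter through Tregs alone (24.3% against 6.78% of Tfh), which favoured that direction. The Treg share by block was 22.6%, 15.0% and 34.1%. Dividing cells exceeded the same Tfh cells by 2.15 (2.86, 3.36 and 0.28 by block), with shares of 46.7%, 60.0% and 20.0%. With the set-aside cells the difference was 1.71, and 1.14 in the first block. In this comparison Cd74 passed the filter through the dividing cells alone. Most genes were higher in dividing cells: the median over the 8300 genes tested, without the 4, was 0.80, and 49.6% were higher in all 3 blocks. The third block thus lay below that median, and the first and second above it.

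Between the sorts, dividing cells had less Cd74 in HIP (1 of 9) than in Ins, with mean log2(TPM + 1) of 0.61 and 2.61, and less H2-DMa (1 of 9 against 12 of 35), with a difference of -1.57. Both had each HIP block below each Ins block. So had 10.5% of the 9539 genes that passed the filter in that class, and the 9 HIP cells were split 2 and 7 over the blocks.

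Over all Ins T cells without the 4, Cd74 was found in 35 of 133 cells with Foxp3, the factor that defines Tregs (26.3%, 19.1% to 34.7%), and in 13 of 101 without (12.9%, 7.04% to 21.0%). Within the classes the shares were closer. Among annotated Tregs it was found in 22 of 94 cells with Foxp3 (23.4%, 15.3% to 33.3%) and 6 of 21 without (28.6%, 11.3% to 52.2%). Among Ins dividing cells it was found in 12 of 27 with Foxp3 (44.4%) and 3 of 8 without (37.5%, 8.52% to 75.5%). The intervals are wide and overlap.

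Cd74 in T cells came mostly without the chains it serves. Of the 54 T cells with Cd74 outside the 4, 46 had no classical chain, among them 25 of the 28 Tregs and 14 of the 15 dividing cells. The chains were rare in T cells at large, however. At least 1 was found in 8 of the 54, against 19 of all 416, so chains were more frequent in cells with Cd74. Of the 11 T cells with H2-Ab1, 7 held Cd74. All 54 held Cd3e and 45 held Cd4, against 352 and 315 of the 362 T cells without Cd74. The median gene number was 2413 in the 54, against 2030 in the 362 without Cd74. Within classes the gap was smaller, with 2102 and 2002 genes in Ins Tregs, and 3646 and 3480.5 in Ins dividing cells.

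Values that bear on RNA from other cells were as follows. Sdc1 and Fcer1g, found in 20 of 21 cells of cluster 4 each, were found in none of the 416 T cells with or without Cd74, and Igj in 1 of 54 against 17 of the 362. Igj was found in 18 of 416 T cells (4.33%, 2.58% to 6.75%) at a median of 1.94 TPM. Its share by block was 5.81% and 6.25% in HIP, where no block held a cell of cluster 4, and 0%, 6.33% and 2.30% in Ins. In cluster 4 the ratio of Cd74 to Igj was 0.0223 to 0.180, so Igj was the more abundant in every cell. Cd79b was found in 4 of the 28 Tregs with Cd74 and in 1 of the 87 without. In 2 of those 4 both genes were low (S148 with 7.58 TPM of Cd74 and 3.88 of Cd79b, S470 with 5.43 and 2.77), and in S108 and S408 Cd79b stood at 373 and 313 TPM. Ins2, the insulin gene of beta cells, was found in 6 of 15 dividing cells with Cd74 and 2 of 20 without. The part of B cell or islet RNA in the Cd74 values was not tested. Of all 420 T cells, 104, the 4 among them, held a B cell or myeloid marker, Sdc1, Igj, Mzb1, Tnfrsf17 or Derl3. Leaving these out gave a Cd74 share of 19.4% in the Ins sort and 3.55% in the HIP sort. Xbp1, Prdm1 and Irf4, which T cells also express, were not used for this.

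The classical chains were rare in T cells, at shares whose intervals overlapped between the sorts. At least 1 was found in 23 of 420 T cells (5.48%, 3.50% to 8.10%), with 10 of 184 in HIP (5.43%, 2.64% to 9.77%) and 13 of 236 in Ins (5.51%, 2.97% to 9.24%). Without the 4 set-aside cells 19 remained, 8 in HIP and 11 in Ins. Of these 15 held 1 chain, 3 held 2 and 1 (S2) held all 3. By block they numbered 7 and 1 in HIP and 4, 2 and 5 in Ins, so all but 1 of the HIP cells came from the first block, which also held 2 of the set-aside cells. In the second HIP block H2-Aa and H2-Ab1 were found in 0 and H2-Eb1 in 1 of 96 T cells.

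Apart from the 4, H2-Ab1 was found in 11 of 416 T cells, H2-Eb1 in 8 and H2-Aa in 5. H2-Ab1 was found in 3 HIP cells, all at 1209 to 1504 TPM, and in 8 Ins cells, at 1.99 to 1815 TPM with a median of 20.6. H2-Eb1 was found in 5 HIP cells, at 1.44 to 806 TPM, and in 3 Ins cells, all Tregs, at 399.9, 499.9 and 855 TPM. H2-Aa reached 2715 TPM in S419, an Ins Tfh with no other chain and no Cd74. The highest chain of each of the 19 cells ran from 1.62 to 2715 TPM, with a median of 399.9, and 11 of the 19 reached 100 TPM. Single chains at such levels overlap the range of cluster 4.

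The 19 cells kept T cell genes. Cd3e was found in 19 and Cd4 in 17 of them, H2-DMb1 or H2-DMb2 in none, and Cd74 in 8. One of the 19 (S148) held Cd79b, at 3.88 TPM, and 1 held Igj. Their gene numbers ran from 1289 to 3890 with a median of 1872, against 2081 over all cells, which include the gene-rich dividing cells. Among T cells without Cd74, apart from the 4, the median was 1954.5 in HIP Tfh, 1963 in Ins Tfh and 2002 in Ins Tregs. A second cell's RNA in the 19 libraries was not tested beyond these values. The chains differ in sequence between mouse strains, and the labels name no strain, so the effect of the reference on their values was not tested.

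Among the 4 T cell classes, any chain was found in 9 of 111 HIP Tfh and 5 of 61 Ins Tfh, or 7 and 3 apart from the set-aside cells. It was found in 6 of 115 Ins Tregs (5.22%, 1.94% to 11.0%) and in 1 cell each of HIP activated, Ins activated and Ins dividing cells.

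H2-DMa was spread over T cells in another way than Cd74. Without the 4, 24 of 182 T cells held it in the HIP sort (13.2%, 8.64% to 19.0%) and 35 of 234 in the Ins sort (15.0%, 10.6% to 20.2%). The 4 held none, so with them the shares were 13.0% and 14.8%. By block, without the 4, the shares were 14.0% and 12.5% in HIP, and 14.7%, 16.5% and 13.8% in Ins. In Ins it was found in 11 of 59 Tfh (18.6%, 9.69% to 30.9%), 9 of 115 Tregs (7.83%, 3.64% to 14.3%) and 12 of 35 dividing cells (34.3%, 19.1% to 52.2%). Tregs were lower than Tfh by 1.05 on the log2 scale (a difference of -1.05, with -1.23, -1.73 and -0.23 by block), the opposite of Cd74. H2-DMa passed the filter of 10% through Tfh alone, which favoured that direction. The share of all genes lower in Tregs in every block is not given here. With the set-aside cells the H2-DMa difference was -0.99. Where detected, it reached 1788 TPM in HIP Tfh, above its highest value in cluster 4 (1396 TPM). Of the 59 T cells with H2-DMa, 10 also held Cd74, against 54 of all 416. H2-DMa was found in 18.5% of the T cells with Cd74 and in 13.5% of those without.

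H2-DMb1 and H2-DMb2 encode the beta chain of H2-DM. They are near-identical neighbours, so reads can be split between them and their single values are uncertain. One or the other was found in 10 of 416 T cells: 3 of 109 HIP Tfh, 5 of 59 Ins Tfh (8.47%, 2.81% to 18.7%) and 2 of 61 HIP activated cells. Neither was found in 115 Ins Tregs, which allows a share of up to 2.61%. Both an alpha and a beta chain of H2-DM were found in 2 T cells, and none of the 10 held Cd74. In cluster 4 a beta chain was found in 12 of 21 cells and both chains in 6. In the 4 set-aside cells H2-DMb1 stood at 734 to 1598 TPM and H2-DMb2 at 1932 to 5826 TPM, while H2-DMa was at 0 in all 4.

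Among regulators, Ciita, the master coactivator of class II genes, was found in 0 of 21 cells of cluster 4, which allows a share of up to 14.3%. It was found in 2 of the 4 set-aside cells (557 and 581 TPM) and in 2 of 115 Ins Tregs (1.74%, 0.211% to 6.14%). None of the 8 genes of the class II transcription list was found in over 50% of cluster 4. Rfxank, a subunit of RFX, was found in 33.3% of cluster 4, 35.7% of Ins Tregs and 40.7% of Ins Tfh. H2-Eb2, a lesser I-E beta gene, was found in 7 of 21 cells of cluster 4.

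The list of endosomal processing holds proteases that trim antigens and the invariant chain, and 3 of its 8 genes were found in over 50% of Ins T cells. Without the set-aside cells, 4 of the 8 passed the filter, and these 4 were higher in Tregs than in Tfh in every Ins block, as were 19.8% of all genes tested. Their median difference was 3.05, against -0.01 for all genes tested, and 3.24 with the set-aside cells. Ctss, the protease that cuts the invariant chain down to CLIP in B cells and dendritic cells, was found in 85.2% of Tregs (77.4% to 91.1%) and 47.5% of Tfh (34.3% to 60.9%). Ctsd was found in 79.1% and 49.2%, Ctsb in 97.4% and 81.4%, and Ctsz in 33.0% and 15.3%. In HIP against Ins Tfh, 3 of the 4 passing genes were higher and 1 lower, none in every block, with a median of 0.17.

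Dividing Ins cells added Ifi30, the thiol reductase of the endosome (51.4%, against 5.08% of Tfh), and Lgmn (20.0%, against 0 of 59 Tfh, which allows up to 5.08%). The 6 of 8 genes that passed the filter there had a median difference from Tfh of 2.51, against 0.80 over all genes, and 2.65 with the set-aside cells. Ifi30 and Lgmn passed through the dividing cells alone, so their direction was largely set by the filter, and the median includes them. Of the 6 genes, 4 were higher in every block, as were 49.6% of all genes tested. The Treg and dividing comparisons share the same Tfh cells. Ctsh was found in 61.9% of cluster 4 and in none of the 115 Ins Tregs, which allows up to 2.61%. Cd83, which holds class II on the surface of antigen presenting cells, went the other way from Cd74. It was found in 32.2% of Ins Tfh and 1.74% of Ins Tregs, with a difference of -3.04 (-3.15 with the set-aside cells). By block, without the 4, its share was 42.9%, 31.8% and 26.1% in Tfh and 6.45%, 0% and 0% in Tregs. Cd83 passed the filter through Tfh alone, which favoured that direction, and the share of all genes lower in Tregs in every block is not given here.

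**Figure D4:**
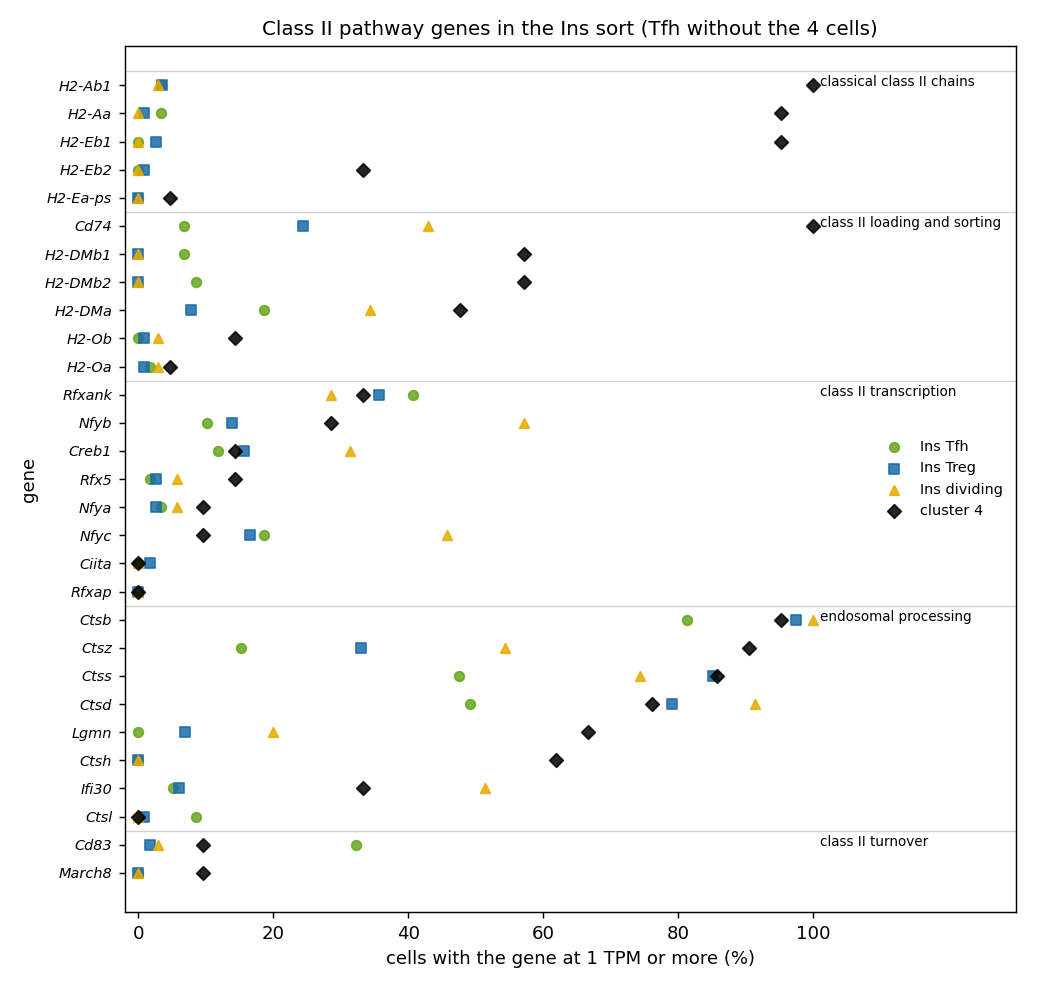
Share of Ins cells with each gene of the class II pathway lists (%), for Tfh without the 4 set-aside cells, Tregs, dividing cells and cluster 4. The classical chains separate cluster 4 from every T cell class, whereas Ctss, Ctsb and Ctsd reach 74.3% or more of both Tregs and dividing cells.

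The class I genes H2-K1 and H2-D1 were found in all Ins Tregs and all Ins Tfh apart from the 4, so the low shares of the class II chains stand beside near-universal class I RNA. All 9 listed class I presentation genes were found in over 50% of cluster 4, and 8 of 9 in over 50% of Ins T cells.

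Across the 7 class-by-sort means with 9 or more cells, without the 4, the genes most like Cd74 by Pearson correlation were Il1r2 (0.998), Tmbim4 (0.996), Spint2 (0.995), Ergic1 (0.993) and Il2ra (0.987). The points share cells with their own class and carry no p. Over the 234 single Ins T cells Il1r2 again ranked highest, but at 0.29, with Rbm45 at 0.28 and Gng10, Rbm8a and Grhl1 at 0.27, 0.27 and 0.26. Over the HIP T cells Rasgrp3 ranked highest at 0.43 and Fcer2a, a B cell receptor for IgE, reached 0.35 with the 4 cells. Without them none of the 5 leading genes was the same, and Fitm2 led at 0.43. Such weak correlations in sparse data are given as description only.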

How the data were processed

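Single-cell SMART-Seq2 libraries were analysed from the authors' deposited table, which gives natural log values (13561 genes, 441 cells). The submitters' processing notes name TopHat, Bowtie, RSEM 1.2.8 and mm10, without roles; no source used here gives the filters before deposit. Each cell summed to 100000 after exponentiation and subtraction of 1, so values were read as ln(TPM/10 + 1) and turned back into TPM summing to 1000000. The deposited annotation gave the class of each cell, another kind of column, and the count of genes above 0; both matched the labels and the table in 441 of 441 cells. The highest correlation of any pair of cells was 0.854, and 0 columns stayed unmatched.

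Detection was set at 1 TPM, differences are of mean log2(TPM + 1), and genes had to be detected in 10% of either group to count in a background. TPM keeps no depth, so precision is given by numbers of cells. Each sort was 1 sample, so no p-value was computed. Members, marker lists and pathway lists were chosen with earlier results of these data known; the 4 high-chain cells were set aside after their values were seen. The 5 members were always named, other pathway genes if detected in 10% of a group of 20 or more cells, and the 5 genes most like Cd74 by correlation among genes in 5% or more of cells. Cells were sorted singly and no doublet caller was run. RefSeq GRCm38.p6 gave positions for all 5 genes and promoters for 3. The block rule was tested on simulated data. Python 3.11.15, numpy 2.4.6, pandas 2.3.3, scipy 1.17.1 and matplotlib 3.10.9 were used.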

Additional observations from a re-analysis of the deposited data

How the results depend on the processing

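Each value was recomputed with other detection limits, pseudocounts, cell filters and weights, and, chosen after seeing the data, without the 4 high-chain cells and without Igj. Of 337 such values for 45 results, 290 stayed within a range set by the kind of result. For shares and backgrounds it was the exact interval, and for differences the spread over blocks with no change of sign. For counts of cells with chains it was a fixed factor, and for cluster 4 medians the standard deviation over single cells. That last range is wide, at 3768 TPM around a Cd74 median of 7036 TPM, so few values could leave it. At 100 TPM or more, Cd74 was found in 13.1% of Ins T cells, below the interval at 1 TPM. HIP T cells with any chain numbered 6 at 100 TPM, and Ins T cells with 2 or more chains 3 at 10 and at 100 TPM. Without T cells that held other-cell markers, Ins cells with any chain numbered 8, and cells with 2 or more chains 0 in HIP and 2 in Ins. Without the 4 cells, those with 2 or more numbered 1 and 3. With no detection filter the backgrounds were 13.3% (all T cells), 8.41% (dividing), 13.0% (Treg against Tfh) and, added after seeing the data, 31.0% (dividing against Tfh).

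Leaving out 1 block at a time, H2-Aa ran from 0 to 4.55%, H2-Ab1 from 0 to 5.68% and H2-Eb1 from 1.04% to 6.82% of HIP T cells, each lowest without the first HIP block. In cluster 4, H2-Aa and H2-Eb1 each ran from 85.7% to 100%. The HIP minus Ins difference of H2-DMa ran from -0.46 to 0.29 in Tfh and from -2.31 to -1.36 in dividing cells, and that of Cd74 from -0.0932 to 0.33 in activated cells. Differences of the rare chains changed sign with the blocks: in Tfh between sorts, H2-Aa ran from -0.57 to 0.0421, H2-Ab1 from -0.55 to 0.50 and H2-Eb1 from -0.41 to 0.38, and in Treg against Tfh, H2-Ab1 ran from -0.64 to 0.11 and H2-Eb1 from -0.40 to 0.22.

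Other settings also turned these signs. Between sorts in Tfh, H2-Aa was 0.0639 in cells with 1500 to 3000 genes, and H2-Ab1 -0.0523 with a pseudocount of 0.1 and -0.13 with equal block weights. H2-Eb1 was 0.0267 with a pseudocount of 0.1, 0.0897 in the gene window, 0.18 without marked cells and 0.15 without the 4. H2-DMa was 0.42 without marked cells. In Treg against Tfh, H2-Ab1 was 0.17 without marked cells and 0.10 without the 4, and H2-Eb1 was 0.0184 in the gene window, 0.24 without marked cells and 0.24 without the 4. H2-DMa between sorts moved to -0.80 (gene window) and -0.14 (without marked cells) in activated cells, and to -2.32 and -0.89 with pseudocounts of 0.1 and 10 in dividing cells. The cause was not tested.

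No paired analysis was possible because the replicate numbers only count cells within a sort and pair none of them. The number of cells limits every share, and the depth of single cells is unknown.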
